A study of Mus musculus with 48 samples.

Results

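Hippocampi (HPC) of CIE mice killed 7 d after their last vapor session were compared with those of CIE mice killed at 0 h, as that session ended, to ask which transcripts had changed over a week of abstinence. The comparison took every mouse that the labels place in these groups, 6 CIE mice at 7 d and 6 CIE mice at 0 h, 12 of the 48 mice in the series. CIE stands for chronic intermittent ethanol. These mice inhaled ethanol vapor (10 to 13 mg/l air) for 16 h/day on 4 days and then had 7 days without it, and this was done for 4 cycles. Before the vapor they received 1.6 g/kg ethanol with 1 mmol/kg pyrazole, an inhibitor of alcohol dehydrogenase. The Ctrl mice that mark the passage of time without ethanol, 6 at 7 d and 6 at 0 h, breathed air in chambers of their own and received saline with pyrazole, so pyrazole was common to all groups. CIE mice at 8 h and at 72 h, 6 each, gave the course between the end points. All were adult male C57BL/6J mice, and each gave total RNA to 1 Affymetrix mouse whole-genome array. In CIE mice the time since ethanol cannot be told apart from the time since handling, pyrazole and confinement in the chamber. The Ctrl mice carried the last 3 of these without the ethanol.

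Several of the gene lists examined belong to the interferon and glucocorticoid responses. Interferons are cytokines that switch on, through STAT and IRF transcription factors, antiviral genes, the immunity-related and guanylate-binding GTPases, and the MHC molecules that display peptides to T cells. In brain, microglia and endothelial cells are known to respond strongly to them. Glucocorticoids, the adrenal steroids released in stress, act through a nuclear receptor that induces genes of lipid storage, ion transport and circadian timing, and alcohol and its withdrawal are both known to raise them.

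Array medians ran from 6.601 to 6.627 on the log2 scale, and the lowest correlation among the 12 arrays was 0.985. Neurod6, Wfs1 and Calb1, markers of hippocampal neurons, had mean levels at percentiles 92.4, 91.1 and 98.2 of all genes, while the thalamic marker Shox2 and the striatal marker Drd2 were at percentiles 9.51 and 18.2. Prox1, the marker of dentate granule neurons, was at percentile 66.9 and varied widely between mice, from 7.06 to 9.77 at 7 d and from 7.95 to 10.00 at 0 h. The choroid plexus transcript Ttr ranged from 9.93 to 11.58 in CIE mice at 7 d and from 8.57 to 11.20 at 0 h. None of the measured markers of choroid plexus, ependyma, meninges, endothelium, thalamus, striatum, cortex or hippocampal neurons was called in CIE mice. Values are log2 RMA levels throughout, with 1 probeset standing for each gene, and a change is the mean at 7 d minus the mean at 0 h. A gene was called changed at a LIMMA false discovery rate at or below 0.01. In whole hippocampus, fewer cells of a type and less RNA per cell cannot be told apart.

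At 7 d, 211 of 18193 genes (1.16%) differed from 0 h in CIE mice, 98 higher (0.539%) and 113 lower (0.621%). Interferon-inducible GTPases and MHC class II genes held the largest decreases, of up to 5.58-fold. Lower calls were also made for 9 of 17 MHC class I genes, 7 of 32 antiviral genes and 7 of 31 genes induced by glucocorticoids. The genes that rose did so by less, led by the microglial gene Fcrls (2.62-fold), the predicted gene Gm11627 (2.41-fold) and the Notch target Hes5 (2.21-fold). Akr1c14 (2.01-fold) and the glial lipid carrier Fabp7 (1.98-fold) were next. Akr1c14 was dim, with a mean under 5 on the log2 scale over all arrays, and the filter at that level removed it. Of the 32 called genes that moved by more than 1 on the log2 scale, 28 were lower and 4 were higher. Over all genes the median change was 0.00, and the called changes spanned 0.16 to 2.48 in size. At the level of probesets, 357 of 45037 (0.793%) were called in CIE mice. An unadjusted LIMMA p under 0.05 was reached by 4855, against 5387 between these times in Ctrl mice. For 388 genes (2.13%) the 6 CIE mice at 7 d and the 6 at 0 h did not overlap at all, and 160 of these were called. Without CIE mouse 57 at 0 h the count of called genes was 152, the lowest seen on leaving out 1 mouse, and a fit of the 12 arrays alone called 120. Of the 65 called genes chosen by the rule given with the processing, Akr1c14, Mt1, P2ry12, Fcgr3, Hspa5, Calr, Sdf2l1, Nupr1, Idi1, Insig1, Gpr17, Pdgfra, Aspg, Slc1a3, Sox2, Npy, Cort, Bnip3 and Alas2 lost their call in that smaller fit, with adjusted p from 0.0103 to 0.0643. Called genes named below from outside that rule, such as Ccl8, Gpr34 and Cdkn1a, were not followed in that fit or on leaving out 1 mouse.

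**Figure D1:**
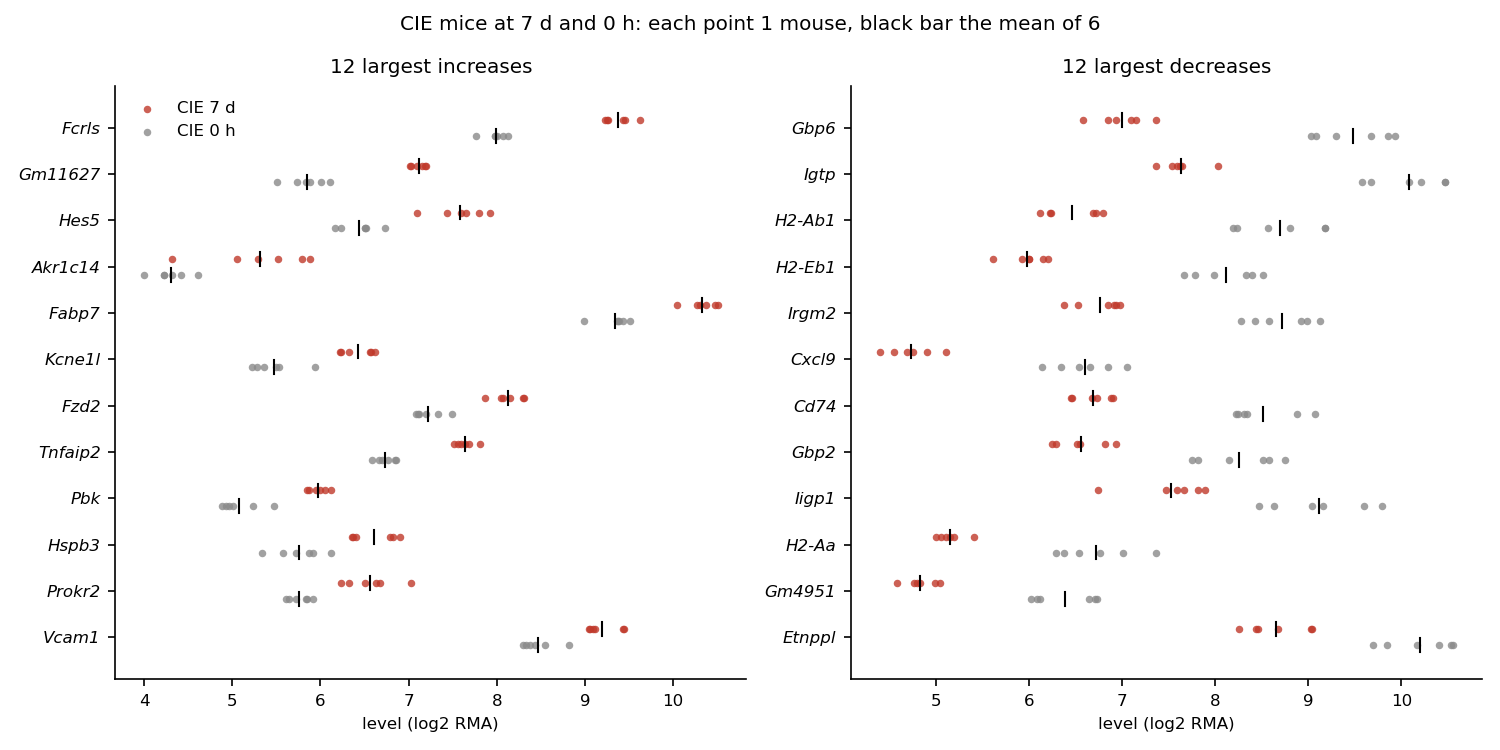
Log2 RMA level of each of the 12 genes with the largest called increase (left) and decrease (right) in CIE mice at 7 d (red) and at 0 h (grey). Each point is 1 mouse and each black bar the mean of 6. Only Akr1c14 overlapped between the times. The decreases spanned -2.48 to -1.55 and the increases 0.73 to 1.39 on the log2 scale.

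The interferon-inducible GTPases, which attack the vacuoles of intracellular pathogens, held the largest decreases of the comparison. Of 11 measured members 7 were called lower and none higher, all 11 changes were below 0, and the median change was -1.54 against 0.00 for all genes. Gbp6, a guanylate-binding protein, had a lowest, median and highest level of 6.58, 7.02 and 7.36 at 7 d, against 9.03, 9.48 and 9.93 at 0 h. That is a gap of well over 1 log2 unit between the highest mouse at 7 d and the lowest at 0 h, and the change was -2.48 ± 0.38 (SE, 5.58-fold, adjusted p = 4.71e-05). Igtp, an immunity-related GTPase, read 7.37, 7.61 and 8.04 at 7 d and 9.57, 10.15 and 10.46 at 0 h (change -2.44 ± 0.33, 5.44-fold, adjusted p = 4.82e-06). Its groups were likewise far apart. The 6 hybridization sets were inferred from equal values on the arrays and are not named in the labels. Within them the mouse at 7 d differed from that at 0 h by -2.93 to -1.63. The sign of these differences was fixed in advance, as the groups did not overlap. Irgm2 read 6.38, 6.88 and 6.98 at 7 d against 8.28, 8.76 and 9.12 at 0 h (change -1.96 ± 0.28, adjusted p = 1.29e-05). Irgm1, a regulatory member of the same family, changed by -1.54 ± 0.22, Gbp2 by -1.70 ± 0.30 and Iigp1 by -1.59 ± 0.31, with adjusted p from 1.96e-05 to 0.00157. None of these overlapped between the times. Mouse 59 at 7 d was the lowest of its group in 9 of the 11 GTPases. Mx1 (-0.33, adjusted p = 0.0623) and Mx2 (-0.09, adjusted p = 0.822), GTPases induced mainly by type I interferon, were not called.

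Promoters of 4 of these GTPases, and of the antiviral gene Rsad2 and the chemokine gene Cxcl10 described below, are shown. They were taken from genes called lower whose windows held the core of the interferon-stimulated response element. Other genes called lower held no match. That element is the motif through which IRF and STAT complexes act on such genes. Promoter windows of 250 bases before to 50 bases after each RefSeq start (GRCm38.p6) were searched on both strands for its core, GAAANNGAA, which can share bases with the heat shock units TTCNNGAA that were searched as well. Capitals mark the match, or its reverse complement, with up to 25 bases on either side.
Igtp: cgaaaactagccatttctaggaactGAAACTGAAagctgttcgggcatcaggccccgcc
Irgm2: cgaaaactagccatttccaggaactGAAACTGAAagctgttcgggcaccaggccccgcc
Irgm1: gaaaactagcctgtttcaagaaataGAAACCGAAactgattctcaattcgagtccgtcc
Gbp2: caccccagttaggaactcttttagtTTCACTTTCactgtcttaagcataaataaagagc
Rsad2: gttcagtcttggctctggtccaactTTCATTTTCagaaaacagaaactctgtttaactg
Cxcl10: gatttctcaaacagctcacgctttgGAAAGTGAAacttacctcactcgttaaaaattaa
These lie at chr11:58199497-58199555 (plus strand), chr11:58214888-58214946 (plus), chr11:48871411-48871469 (minus), chr3:142620580-142620638 (plus), chr12:26456538-26456596 (minus) and chr5:92349069-92349127 (minus). The Igtp and Irgm2 windows carried the same base at 57 of 59 positions. Of the 7 GTPases of the list with a window, 6 held the core (85.7%), as did 14 of 24 antiviral interferon-stimulated genes (58.3%), 3 of 13 MHC class I genes (23.1%) and 1 of 4 MHC class II genes (25%). Among all 27025 genes with a window 9.76% held it. The 168 called genes with a window held it in 19 of 91 that fell (20.9%) and 9 of 77 that rose (11.7%). A match is a description of the letters and not of a bound site.

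MHC class II genes, whose products present peptides from engulfed proteins, fell as a block of 4. These were H2-Ab1, H2-Eb1, H2-Aa and Cd74, which encode the class II chains and the invariant chain that chaperones them. Cd74 read 6.45, 6.70 and 6.90 at 7 d (lowest, median and highest) and 8.22, 8.33 and 9.07 at 0 h. The groups stood apart by more than 1 log2 unit, for a change of -1.83 ± 0.25 (3.55-fold, adjusted p = 4.55e-06). H2-Ab1 read 6.12, 6.46 and 6.80 at 7 d against 8.20, 8.69 and 9.18 at 0 h (change -2.23 ± 0.37, 4.68-fold, adjusted p = 0.000169). H2-Eb1 changed by -2.13 ± 0.34 and H2-Aa by -1.57 ± 0.27, again without overlap. The other 3 measured members were not called. They were H2-DMa, which helps to load peptides (-0.25), the protease gene Ctss (-0.24) and the class II transactivator gene Ciita (-0.10, adjusted p = 0.765).

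The machinery of MHC class I presentation, which displays peptides from a cell's own proteins, was lower as well. All 17 measured members had changes below 0, 9 were called lower and the median change was -0.40. Tap1, a subunit of the peptide transporter, read 6.36, 6.50 and 6.60 at 7 d and 7.29, 7.53 and 7.63 at 0 h. Its groups did not overlap, and the spread within each was small beside the change of -1.03 ± 0.17 (2.04-fold, adjusted p = 0.00012). The immunoproteasome subunit gene Psmb9 read 7.19, 7.30 and 7.37 at 7 d against 8.02, 8.43 and 8.87 at 0 h (change -1.19 ± 0.20, adjusted p = 0.000196), and Psmb8 changed by -1.17 ± 0.22. The 31 measured genes of the proteasome list, in contrast, had no called member. H2-K1, a class I heavy chain read here by probes that can share targets with other class I genes, changed by -1.04 ± 0.21 (adjusted p = 0.002), and the non-classical H2-M3 by -0.62 ± 0.11. B2m, the common light chain, read 12.06, 12.07 and 12.23 at 7 d and 12.53, 12.67 and 12.88 at 0 h. It missed the threshold (change -0.56 ± 0.13, adjusted p = 0.0104) although its groups did not overlap. CIE mouse 11 at 0 h was the highest of its group in 14 of the 17 genes.

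Among 32 antiviral interferon-stimulated genes 31 had changes below 0, with 7 called lower, none called higher and a median change of -0.49. Ifi27l2a, an interferon-induced mitochondrial protein gene, read 6.01, 6.18 and 6.40 at 7 d against 7.44, 7.71 and 7.86 at 0 h (change -1.48 ± 0.30, adjusted p = 0.00207). Rtp4, an interferon-induced receptor chaperone, changed by -1.14 ± 0.21, and Lgals3bp, a secreted galectin ligand, by -1.05 ± 0.17 (adjusted p = 0.000769 and 0.000136). Rsad2, which encodes viperin, read 7.20, 7.91 and 8.03 at 7 d and 8.46, 8.60 and 8.69 at 0 h (change -0.80 ± 0.15, adjusted p = 0.00118). Mouse 59 set the low value of Rsad2 and was the lowest mouse at 7 d in 19 of the 32 genes. Without it, 119 genes were called higher and 91 lower in the whole comparison, a share of 56.7% higher against 46.4% with all mice. The chemokines Cxcl9 and Cxcl10, which draw T cells, were the only called members of the list of 24 chemokines and inflammatory cytokines. Outside that list, and named after their values were seen, the chemokine genes Ccl8 (-0.84, adjusted p = 0.008) and Ccl9 (0.65, adjusted p = 0.000158) were called in opposite directions. Cxcl10 read 5.06, 5.24 and 5.43 at 7 d against 5.96, 6.34 and 6.98 at 0 h (change -1.14 ± 0.18, adjusted p = 0.000105). Cxcl9 fell by 1.86 on the log2 scale (adjusted p = 0.00466), but its call was lost with the hybridization sets as a block (adjusted p = 0.0128) and without any of CIE mice 9, 37 and 45 at 7 d or 11, 43, 57 and 72 at 0 h (adjusted p up to 0.0143). The median change of the whole cytokine list was -0.02, and 11 complement components, at a median of -0.13, had no called member.

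**Figure D2:**
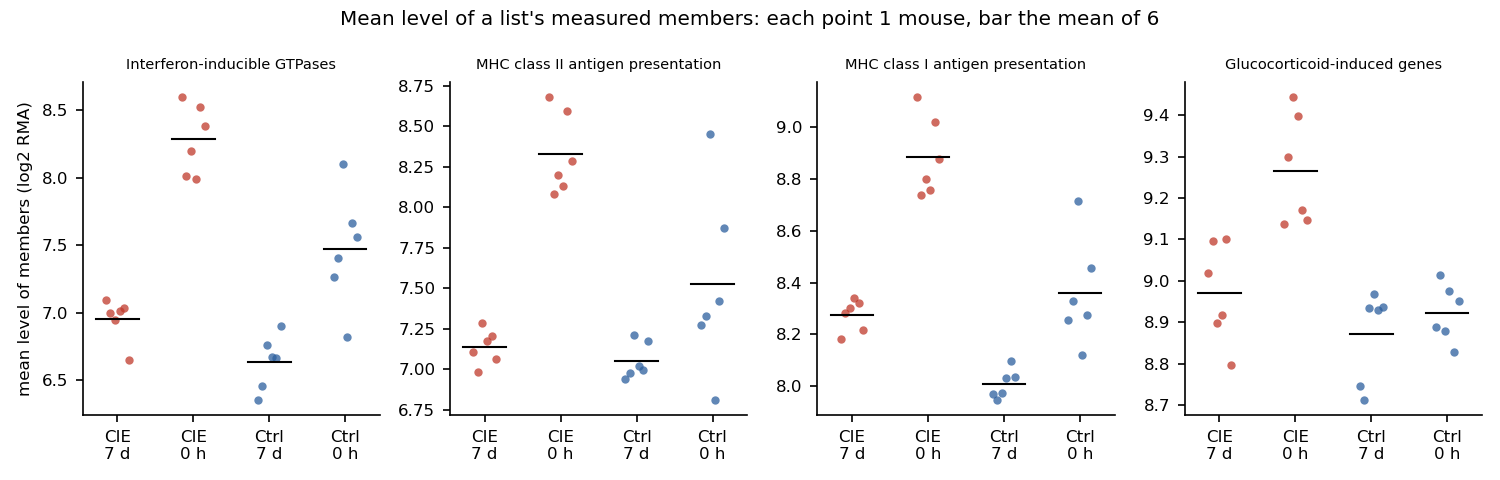
Mean log2 RMA level of the measured members of 4 gene lists in each mouse, with CIE mice in red, Ctrl mice in blue and a black bar at the mean of 6. For all 4 lists the CIE mice at 7 d lie below the CIE mice at 0 h without overlap, whereas the Ctrl mice at 0 h spread widely in the first 3 (GTPases 6.82 to 8.10, class II genes 6.81 to 8.45).

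Averaged over the 11 GTPases, single CIE mice stood between 6.65 and 7.09 at 7 d and between 7.99 and 8.60 at 0 h. Class II genes averaged 6.98 to 7.29 at 7 d and 8.08 to 8.68 at 0 h, and class I genes 8.18 to 8.34 at 7 d and 8.74 to 9.12 at 0 h. For all 3 lists the mice at 7 d lay closer to each other than did the mice at 0 h. Ctrl mice averaged 6.35 to 6.90 for the GTPases at 7 d and 6.82 to 8.10 at 0 h. Summed levels of 28 microglial genes, on the linear RMA scale, were 20908 to 25662 in CIE mice at 7 d and 19873 to 25072 at 0 h, ranges that overlapped, with the higher values at 7 d. Endothelial and pericyte markers summed to 8899 to 17748 at 7 d and 9828 to 13639 at 0 h, meningeal markers to 9859 to 21317 at 7 d and 11879 to 18350 at 0 h, and blood cell markers to 1731 to 1931 at 7 d and 1572 to 1751 at 0 h. The part of these cells in the decreases was not tested. Of these 3 marker lists only the blood cell list had a called member, the erythroid enzyme gene Alas2 (0.62 ± 0.13, adjusted p = 0.00384). Its call was lost with the sets as a block (adjusted p = 0.0105) and without CIE mouse 37 at 7 d or 19, 57 or 72 at 0 h (adjusted p up to 0.0222).

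Microglial genes themselves moved in both directions, with 4 of 28 called higher, 1 called lower and a median change of 0.04. Fcrls, a receptor-like gene of resident microglia, read 9.23, 9.35 and 9.63 at 7 d and 7.77, 7.99 and 8.12 at 0 h. The lowest mouse at 7 d was more than 1 log2 unit above the highest at 0 h, and the change was 1.39 ± 0.11 (2.62-fold, adjusted p = 1.54e-11). Olfml3, a secreted protein gene also typical of resident microglia, read 8.28, 8.47 and 8.65 at 7 d against 7.49, 7.80 and 8.02 at 0 h (change 0.68 ± 0.09, adjusted p = 2.54e-06). P2ry12, the purinergic receptor with which microglia sense ATP and ADP, read 9.76, 10.11 and 10.32 at 7 d against 9.28, 9.50 and 9.80 at 0 h (change 0.59 ± 0.10, adjusted p = 0.000419). Only P2ry12 of these 3 overlapped between the times, and slightly. Gpr34, a lysophospholipid receptor gene, was the remaining one called higher (0.64, adjusted p = 0.00317). Fcgr3, an activating Fc receptor gene, went the other way, with 9.09, 9.20 and 9.38 at 7 d and 9.30, 9.75 and 10.02 at 0 h (change -0.48 ± 0.09, adjusted p = 0.00108). The general microglial genes Cx3cr1 (0.09), Csf1r (0.04), Tmem119 (0.01) and Aif1 (-0.16) were not called, with adjusted p from 0.663 to 0.982. At 7 d, mouse 9 was the highest of its group in 23 of the 28 genes and mouse 7 the lowest in 14.

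**Figure D3:**
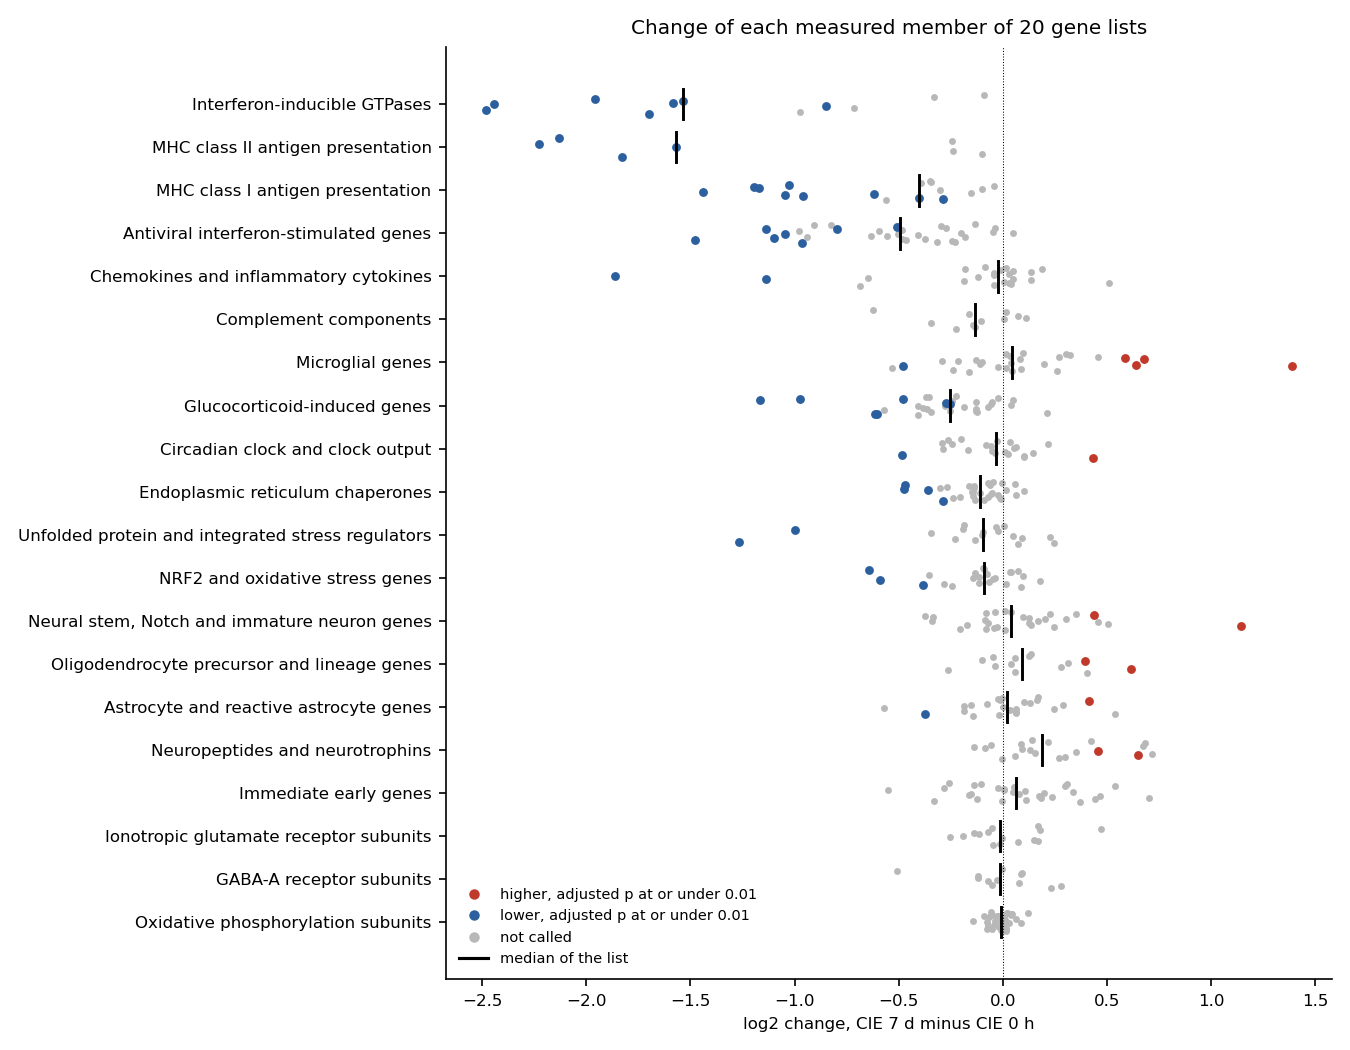
Log2 change, CIE 7 d minus CIE 0 h, of each measured member of 20 gene lists. Red and blue points are members called higher and lower, grey points are not called, and black bars are list medians, which run from -1.57 for MHC class II genes to 0.19 for neuropeptides and neurotrophins.

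Genes induced by glucocorticoids were lower at 7 d, with 7 of 31 measured members called lower, none higher, 28 below 0 and a median change of -0.25. Plin4, which coats lipid droplets, read 5.74, 6.17 and 6.25 at 7 d and 6.82, 7.17 and 7.76 at 0 h. Its groups did not overlap, for a change of -1.17 ± 0.14 (2.25-fold, adjusted p = 1.67e-07). Sult1a1, a phenol sulfotransferase gene, read 7.92, 8.20 and 8.64 at 7 d against 8.93, 9.25 and 9.57 at 0 h (change -0.97 ± 0.14, adjusted p = 1.29e-05). Sgk1, a kinase gene of ion transport, read 11.01, 11.24 and 11.34 at 7 d against 11.56, 11.64 and 11.91 at 0 h (change -0.48 ± 0.09, adjusted p = 0.00162). Mt1, which encodes a metallothionein, changed by -0.25 ± 0.05 with little spread (adjusted p = 0.000831). The other 3 called members were Arrdc2 (-0.61), Cdkn1a (-0.60) and Mt2 (-0.27). Fkbp5, which dampens the receptor, stood at -0.25 ± 0.13 (adjusted p = 0.467) and Tsc22d3, an anti-inflammatory effector gene, by -0.37 ± 0.10 (adjusted p = 0.0484), and both overlapped between the times. The list mean of each mouse ranged from 8.80 to 9.10 at 7 d and from 9.14 to 9.44 at 0 h.

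The core of the receptor's palindromic element, ACANNNTGT, is shown for Mt1 and Sgk1, called members of this list whose windows held it.
Mt1: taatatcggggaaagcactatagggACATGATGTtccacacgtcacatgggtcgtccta
Sgk1: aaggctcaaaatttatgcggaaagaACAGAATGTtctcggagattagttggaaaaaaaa
The Mt1 stretch lies at chr8:94178972-94179030 and the Sgk1 stretch at chr10:21993679-21993737, both on the plus strand, and capitals mark the core. It was present in 4 of 24 windows of the list (16.7%) and in 7.9% of all genes with a window. Of the genes called lower 8 of 91 held it (8.79%), and of those called higher 6 of 77 (7.79%).

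Clock genes had a list median of -0.03 over 22 genes, with 1 member called higher and 1 called lower. The clock hour at which each group was killed is not given in the labels, and its part in these values was not tested. Arntl, which encodes the clock activator BMAL1, read 9.44, 9.56 and 9.76 at 7 d and 9.04, 9.14 and 9.19 at 0 h (change 0.43 ± 0.07, 1.35-fold, adjusted p = 0.000243). Ciart, a repressor of the same loop, read 7.62, 7.69 and 7.96 at 7 d and 8.02, 8.24 and 8.40 at 0 h (change -0.49 ± 0.09, adjusted p = 0.000632). Neither overlapped between the times, and the other probeset of Arntl was not called. Dbp, a clock output gene, read 11.59, 11.61 and 11.63 at 7 d and 11.68, 11.76 and 11.88 at 0 h. It did not overlap either, yet its change of -0.17 ± 0.05 was not called (adjusted p = 0.119). Per1 (-0.24, adjusted p = 0.12) and Nr1d1 (-0.06, adjusted p = 0.875) were not called. The E-box, CACGTG, to which BMAL1 binds with CLOCK, was found 3 times in a Ciart window. A stretch with a pair of them is given, the capitals marking the copy nearer to the start.
Ciart: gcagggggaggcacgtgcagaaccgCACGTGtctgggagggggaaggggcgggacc
It lies at chr3:95882242-95882297 on the minus strand. The E-box was present in 5 of 19 windows of the clock list (26.3%) and in 8.09% of all genes with a window.

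Chaperones of the endoplasmic reticulum were slightly lower, with 4 of 31 members called lower, none higher and a median change of -0.11. In Ctrl mice the median change of this list was -0.08, with 2 members called lower. Manf, a secreted survival factor released in endoplasmic reticulum stress, read 10.14, 10.18 and 10.23 at 7 d and 10.49, 10.68 and 10.78 at 0 h. The groups were apart and the mice at 7 d were very close to each other (change -0.47 ± 0.06, 1.39-fold, adjusted p = 9.61e-07). Hspa5, the chaperone BiP, changed by -0.36 ± 0.07, and Calr, a lectin chaperone, by -0.29 ± 0.05 (adjusted p = 0.000787 and 0.00112). Sdf2l1 changed by -0.47 ± 0.09 (adjusted p = 0.00223), a call that was lost without CIE mouse 43 or 67 at 0 h (adjusted p up to 0.0117). Atf5, a transcription factor of the integrated and mitochondrial stress responses, fell much more. It read 8.11, 8.25 and 8.48 at 7 d and 9.23, 9.56 and 9.78 at 0 h, without overlap (change -1.27 ± 0.12, 2.41-fold, adjusted p = 5.52e-10). The stress-induced regulator Nupr1 changed by -0.996 ± 0.15 (adjusted p = 3.64e-05), with overlap. These were the called members among 17 regulators of the unfolded protein and integrated stress responses, whose median change was -0.10.

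NRF2 and oxidative stress genes had 3 of 23 members lower. Srxn1, which repairs oxidized peroxiredoxins, read 9.00, 9.16 and 9.23 at 7 d and 9.68, 9.79 and 9.89 at 0 h (change -0.64 ± 0.07, 1.56-fold, adjusted p = 1.37e-08). Gclm, a subunit of the enzyme that limits glutathione synthesis, changed by -0.38 ± 0.06 and the glutathione transferase gene Gstm1 by -0.59 ± 0.10 (adjusted p = 1.76e-05 and 0.000158). Srxn1 and Gclm did not overlap between the times, and Gstm1 barely did. Heat shock genes had no called member among 22. Hspa1b, an inducible HSP70 gene, read 10.17, 10.55 and 10.68 at 7 d and 10.73, 11.09 and 11.50 at 0 h, groups that did not overlap but were not called different (-0.56 ± 0.14, adjusted p = 0.0254). The 16 genes of alcohol metabolism had no called member either.

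Single genes of progenitor and glial identity were among those that rose, in lists whose members moved in both directions. Changes were above 0 for 17 and below 0 for 12 genes of neural stem cells, Notch and immature neurons. In the astrocyte list they were above 0 for 12 and below 0 for 12. Hes5, an effector of Notch signaling in neural stem cells, read 7.09, 7.63 and 7.92 at 7 d and 6.17, 6.51 and 6.73 at 0 h. The groups did not overlap (change 1.14 ± 0.16, 2.21-fold, adjusted p = 1.44e-05), although the mice at 7 d spread over most of a log2 unit. Sox2, a transcription factor of neural stem cells and astrocytes, read 10.19, 10.46 and 10.78 at 7 d against 9.97, 10.05 and 10.14 at 0 h (change 0.44 ± 0.08, adjusted p = 0.00038). These were the called members among 29 genes of neural stem cells, Notch and immature neurons, whose median was 0.04. Fabp7, a fatty acid binding protein of radial glia and astrocytes, read 10.05, 10.34 and 10.51 at 7 d against 8.99, 9.38 and 9.51 at 0 h (change 0.98 ± 0.09, 1.98-fold, adjusted p = 5.52e-10). Mouse 57 was the low one at 0 h, and none of the 12 mice crossed between the groups. Gpr17, a receptor of newly committed oligodendrocyte precursors, read 8.80, 9.17 and 9.30 at 7 d against 8.12, 8.49 and 8.70 at 0 h (change 0.61 ± 0.10, adjusted p = 0.00011). The precursor marker Pdgfra rose by 0.40 (adjusted p = 0.00506), but its 2 groups overlapped at CIE mouse 43 at 0 h. That call was lost with the sets as a block (adjusted p = 0.0158) and without any of CIE mice 9 and 45 at 7 d or 11, 19, 57, 67 and 72 at 0 h (adjusted p up to 0.0242). Gpr17 and Pdgfra were the called members among 14 genes of the oligodendrocyte precursor list. The median change of that list was 0.09 in CIE mice and 0.20 in Ctrl mice. None of 19 myelin genes was called. In the astrocyte list (24 genes, median 0.02) the glutamate transporter gene Slc1a3 rose by 0.41 (adjusted p = 0.00506) and Aspg changed by -0.38 (adjusted p = 0.00177). The Slc1a3 call was lost without CIE mouse 9, 27, 37 or 45 at 7 d or 19, 67 or 72 at 0 h (adjusted p up to 0.026), and that of Aspg without CIE mouse 37 at 7 d or 67 at 0 h (adjusted p up to 0.012).

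Vegfa, the vascular growth factor that hypoxia induces, read 7.96, 8.27 and 8.49 at 7 d and 7.48, 7.50 and 7.87 at 0 h. The groups were apart by little at their edges, and the change was 0.66 ± 0.08 (1.58-fold, adjusted p = 1.66e-06). The other probeset of Vegfa was not called. Bnip3, a mitophagy gene that hypoxia also induces, moved the other way (-0.22 ± 0.04, adjusted p = 0.000316). Vcam1, an adhesion molecule of vessels and stem cells, read 9.05, 9.10 and 9.44 at 7 d against 8.30, 8.41 and 8.83 at 0 h (change 0.73 ± 0.11, adjusted p = 3.39e-05). The Wnt receptor gene Fzd2 rose by 0.90 and the cytokine-induced Tnfaip2 by 0.90, and neither overlapped between the times (adjusted p = 1.43e-08 and 1.86e-08). Gm11627, a predicted gene, read 7.01, 7.13 and 7.20 at 7 d and 5.51, 5.86 and 6.11 at 0 h (change 1.27 ± 0.09, 2.41-fold, adjusted p = 5.57e-14). Etnppl, an astrocyte enzyme gene of phosphoethanolamine breakdown, was among the 12 largest decreases, with 8.26, 8.57 and 9.04 at 7 d and 9.69, 10.29 and 10.56 at 0 h. That is a change of -1.55 ± 0.16 (2.93-fold, adjusted p = 1.86e-08) without overlap. Prokr2, a prokineticin receptor gene, rose by 0.80 (adjusted p = 0.00294), a call that was lost without CIE mouse 59 at 7 d or 67 at 0 h (adjusted p up to 0.0148). The steroid reductase gene Akr1c14 had a wide spread at 7 d, 4.31 to 5.89, against 4.00 to 4.61 at 0 h (change 1.01 ± 0.17, adjusted p = 0.000245), with 1 mouse at 7 d inside the range of 0 h.

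Neuronal genes moved less. Of 20 neuropeptides and neurotrophins 2 were called higher, with a median change of 0.19. Npy, neuropeptide Y of interneurons, read 11.28, 11.52 and 11.65 at 7 d and 10.88, 11.05 and 11.22 at 0 h (change 0.46 ± 0.08, adjusted p = 0.000158). Cort, the somatostatin-like peptide cortistatin, read 7.49, 7.64 and 8.12 at 7 d and 6.79, 7.02 and 7.34 at 0 h (change 0.65 ± 0.11, adjusted p = 0.000262). Both lists of values were free of overlap. Bdnf, the neurotrophin of synaptic plasticity, stood at 0.27 ± 0.25 (adjusted p = 0.803). Of 30 immediate early genes none was called, with Fos at 0.47 ± 0.22 (adjusted p = 0.421), Arc at 0.37 ± 0.19 and Npas4 at 0.30 ± 0.25. The subunits of GABA-A receptors (12 genes), ionotropic glutamate receptors (15) and metabotropic glutamate receptors (13) had no called member, and neither did 20 synaptic genes or 17 ion channel genes sensitive to ethanol. Chromatin regulators (36), splicing factors (40), ribosomal proteins (30) and oxidative phosphorylation subunits (45) had none either. Dnmt3a, a DNA methyltransferase gene (0.14, adjusted p = 0.547), Usp22, a histone deubiquitinase gene (-0.13, adjusted p = 0.205), and the nuclear RNA Malat1 (-0.11, adjusted p = 0.497) were not called. In cholesterol metabolism (26 genes) the synthesis gene Idi1 rose by 0.38 (adjusted p = 0.00317) and the feedback regulator Insig1 changed by -0.37 (adjusted p = 0.00534). The Idi1 call was lost without CIE mouse 9 or 45 at 7 d or 57 or 67 at 0 h (adjusted p up to 0.0144). That of Insig1 was lost with the sets as a block (adjusted p = 0.0159) and without CIE mouse 27, 37 or 59 at 7 d or 43 or 72 at 0 h (adjusted p up to 0.0295).

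Most of the decreases were not yet to be seen at 8 h. Of the 113 genes called lower at 7 d, 65 had a higher mean at 8 h than at 0 h, and the median 8 h level was 0.06 above that at 0 h. At 72 h the median was 0.43 below it, and 104 of the 113 genes had a 72 h mean nearer to that at 7 d than to that at 0 h. The median gene had made 79.5% of its change by 72 h. Members of the immune lists called lower at 7 d were higher at 8 h than at 0 h. All 7 called GTPases were above their 0 h mean at 8 h (median 1.00 higher), as were all 4 class II genes (0.79), all 9 class I genes (0.54) and all 7 antiviral genes (0.59). Igtp, for example, averaged 10.08 at the start, 10.89 by 8 h, 8.11 by 72 h and 7.63 by 7 d. Cd74 averaged 8.51, 8.93, 7.19 and 6.68 at the same times. The chaperones were also higher at 8 h in 4 of 4 cases (median 0.39), with Manf at 10.66, 11.06, 10.27 and 10.18. Some Ctrl mice were also higher at 8 h. Averaged over the GTPases, CIE mice ran from 7.99 to 8.60 at 0 h and from 8.82 to 9.54 at 8 h, and Ctrl mice from 6.82 to 8.10 at 0 h and from 7.08 to 8.85 at 8 h. The chaperones averaged 10.17 to 10.34 at 0 h and 10.43 to 10.49 at 8 h in CIE mice, and 10.19 to 10.28 at 0 h and 10.24 to 10.33 at 8 h in Ctrl mice. The change by 8 h was not tested in either. Plin4 of CIE mice stayed at its 0 h level at 8 h (7.28 and 7.40) and had made its full change by 72 h (6.07, against 6.11 at 7 d).

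**Figure D4:**
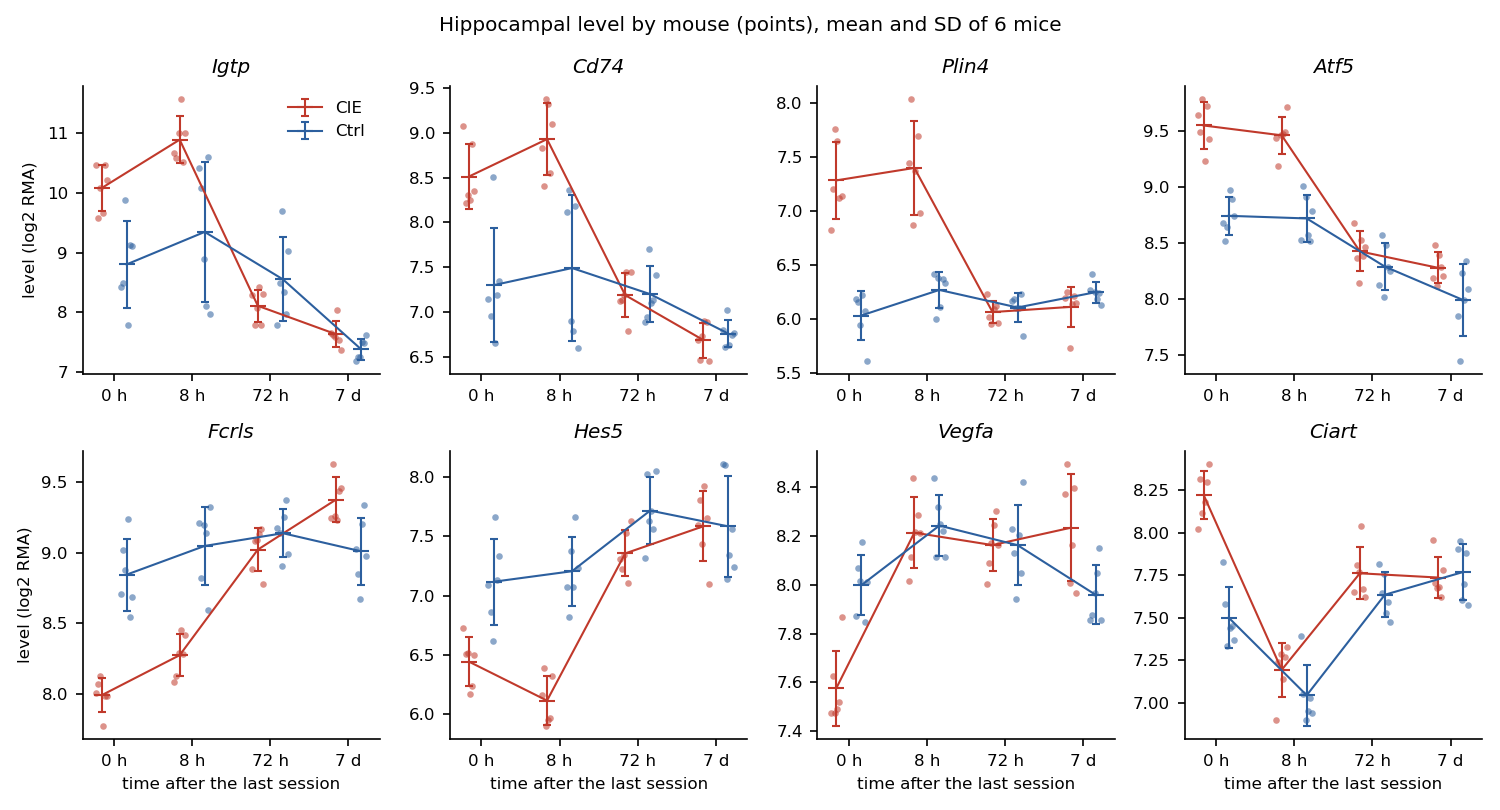
Log2 RMA level of 8 genes over the 4 times in CIE mice (red) and Ctrl mice (blue). Points are single mice, and lines and bars give the mean and SD of 6. Igtp and Cd74 of CIE mice were higher at 8 h than at 0 h before falling, Plin4 and Atf5 held until 8 h, and Fcrls climbed throughout.

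Genes called higher at 7 d mostly had a higher mean already at 8 h. Of 98, 10 had a lower mean at 8 h than at 0 h, and the median change since 0 h was 0.20 at 8 h, 0.32 at 72 h and 0.45 at 7 d. By 72 h the median gene had made 70.5% of its change. Vegfa was complete at 8 h, averaging 7.58, 8.21, 8.16 and 8.23 over the 4 times. It was also higher at 8 h than at 0 h in Ctrl mice, which averaged 8.00, 8.24, 8.16 and 7.96. Fcrls of CIE mice rose more slowly, averaging 7.99, 8.27, 9.02 and 9.38. Hes5 was lower at 8 h than at 0 h before it rose (6.44, 6.11, 7.36 and 7.58). Ciart was lowest at 8 h, with 8.22, 7.19, 7.76 and 7.74, and it was low at 8 h in Ctrl mice as well, which averaged 7.50 at 0 h and 7.05 at 8 h. All of these intermediate values are set against the same mice at 0 h and 7 d that made the calls, and so they describe the course without testing it. Of the later steps, 7 d against 72 h was tested in CIE mice. There 3 of 18193 genes were called, all higher at 7 d.

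In Ctrl mice 50 genes (0.275%) were called between 7 d and 0 h, 17 higher and 33 lower. Of these, 23 were also called in CIE mice and in the same direction, which is 10.9% of the CIE calls and 46% of the Ctrl calls, and none was called in opposite directions. Shared calls included Gm11627 (1.27 in CIE and 1.14 in Ctrl mice), Fzd2 (0.90 and 0.67), Gpr17 (0.61 and 0.84), Etnppl (-1.55 and -1.04), Atf5 (-1.27 and -0.75), Manf (-0.47 and -0.41), Nupr1 (-0.996 and -1.08), Gbp2 (-1.70 and -1.42) and Mt1 (-0.25 and -0.27). Sdf2l1 (-0.47 in CIE and -0.51 in Ctrl mice) and Gstm1 (-0.59 and -0.91) were shared as well, with the larger change in Ctrl mice. Among the 98 genes called higher in CIE mice the Ctrl change was above 0 for 79, at a median of 0.08 against 0.45 in CIE mice. Among the 113 called lower it was below 0 for 95, at a median of -0.25 against -0.55. At an unadjusted LIMMA p under 0.05 the counts were close, 2438 genes in Ctrl mice and 2388 in CIE mice. Mice of the CIE and Ctrl comparisons were different animals. Summed striatal markers ran from 6826 to 21057 in Ctrl mice at 7 d and from 5401 to 8209 at 0 h, a spread that the CIE mice did not have (5905 to 9219 at 7 d, 5000 to 7473 at 0 h), and its part in the Ctrl counts was not tested. Leaving out 1 Ctrl mouse gave from 31 called genes (without mouse 18 at 7 d) to 67 (without mouse 56 at 0 h). The next lowest counts were 32 without mouse 12 at 0 h and 33 without mouse 22 at 7 d.

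Interferon-related lists had median changes below 0 in Ctrl mice too. The median Ctrl change was -0.82 for the GTPases, of which 1 was called lower, -0.54 for MHC class II genes, -0.26 for MHC class I genes and -0.33 for antiviral genes. The Ctrl change was -1.74 ± 0.38 for Gbp6 (adjusted p = 0.0156) and, for Igtp, -1.42 ± 0.33 (adjusted p = 0.0273). The difference between the CIE and Ctrl changes was -0.74 ± 0.54 for Gbp6, -1.03 ± 0.47 for Igtp and -1.29 ± 0.35 for Cd74 (adjusted p = 0.754, 0.487 and 0.132), and it was not called for any member of these 4 lists. For Igtp the SD at 0 h was 0.38 in CIE mice and 0.73 in Ctrl mice. Ctrl mouse 20 had the highest 0 h mean of its group in each of these 4 lists. Its antiviral mean was 7.49, the next highest being 7.04. Its class II mean was 8.45 and its Cd74 level 8.50, with mouse 64 second at 7.87 and 7.35. Antiviral means at 7 d (6.67 to 6.84) were still below the lowest at 0 h (6.99). The Ctrl changes of these lists without mouse 20 were not tested.

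The change differed between CIE and Ctrl mice for 12 genes (0.066%), in the test of the difference itself. In 6 of them the CIE change was the more positive. The change of Fcrls was 1.39 in CIE and 0.17 in Ctrl mice (difference 1.22 ± 0.16, adjusted p = 4.84e-05). That of Olfml3 was 0.68 in CIE and -0.08 in Ctrl mice (difference 0.76 ± 0.13, adjusted p = 0.00128), and that of Vegfa 0.66 in CIE and -0.04 in Ctrl mice (difference 0.70 ± 0.12, adjusted p = 0.00224). For Arntl the changes were 0.43 in CIE and -0.13 in Ctrl mice (difference 0.57 ± 0.10, adjusted p = 0.00502). The others, listed because the test called them, were the Wnt inhibitor gene Wif1 (0.98 ± 0.18, adjusted p = 0.00478) and 2810013P06Rik (0.45 ± 0.08, adjusted p = 0.00399). Wif1 was dim, with means of 4.93 at 7 d and 4.21 at 0 h in CIE mice, and 4.60 and 4.86 in Ctrl mice. In the other 6 the CIE change was the more negative. Plin4 differed most, at -1.17 in CIE and 0.22 in Ctrl mice (difference -1.38 ± 0.19, adjusted p = 8.88e-05). For the cell cycle inhibitor gene Cdkn1a the changes were -0.60 in CIE and 0.37 in Ctrl mice (difference -0.97 ± 0.18, adjusted p = 0.00502), and for Ciart -0.49 in CIE and 0.27 in Ctrl mice (difference -0.75 ± 0.12, adjusted p = 0.00128). Srxn1 was at -0.64 in CIE and -0.11 in Ctrl mice (difference -0.53 ± 0.09, adjusted p = 0.00269). Sbsn was at -0.39 in CIE and 0.10 in Ctrl mice (difference -0.48 ± 0.09, adjusted p = 0.0067). For Dbp the called change was that of the Ctrl mice, with -0.17 in CIE (adjusted p = 0.119) and 0.29 in Ctrl mice (adjusted p = 0.00218), a difference of -0.46 ± 0.08 (adjusted p = 0.00128). Plin4 and Cdkn1a are members of the glucocorticoid list, which had median changes of -0.25 (CIE mice) and -0.02 (Ctrl mice), while Arntl, Ciart and Dbp belong to the clock list. Without CIE mouse 45 or Ctrl mouse 22, both at 7 d, 7 genes were called. A fit of the 24 arrays of these 4 groups alone called 2. Vegfa, Arntl, Cdkn1a and 2810013P06Rik each had 1 other probeset, which was not called between the times in CIE mice. For Srxn1 1 of 3 other probesets was called there, and for Sbsn 1 of 2.

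**Figure D5:**
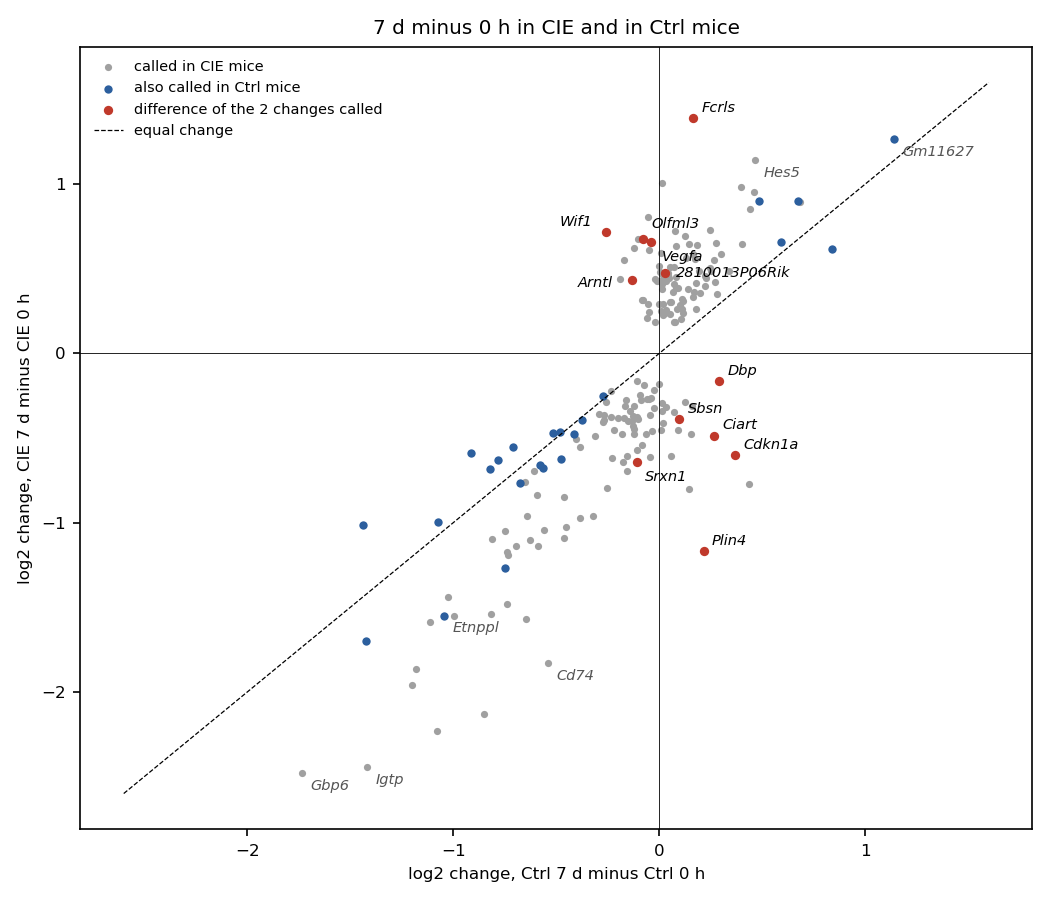
Log2 change between 7 d and 0 h of each gene called in CIE mice, and of Dbp, in CIE mice (vertical axis) against Ctrl mice (horizontal axis). Blue points were also called in Ctrl mice, red points had a called difference, and the dashed line marks equal change. Gbp6 and Igtp lie at the lower left, below 0 on both axes, while Fcrls (1.39) and Plin4 (-1.17) lie far from 0 on the CIE axis and at 0.17 and 0.22 on the Ctrl axis.

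The end points can also be set against Ctrl mice of the same time. The 113 genes that were lower at 7 d in CIE mice stood at a median of 0.10 above Ctrl mice at 7 d and 0.43 above them at 0 h, and 111 had a 0 h mean above that of Ctrl mice. For 99 of them the CIE mean was nearer to the Ctrl mean at 7 d than it had been at 0 h. The 98 genes that were higher had a median distance from Ctrl mice of 0.17 at 7 d and -0.14 at 0 h, and 86 had a 0 h mean below that of Ctrl mice. Of the 98, 43 were nearer to Ctrl mice at 7 d. The genes were chosen by the CIE values themselves, so these distances are descriptive. The 4 microglial genes called higher had a median distance from Ctrl mice of 0.41 at 7 d and -0.18 at 0 h, and the 4 class II genes of 0.06 at 7 d and 1.24 at 0 h.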

How the data were processed

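Total RNA of whole hippocampus, taken from 48 mice in 8 groups of 6, was hybridized to Affymetrix mouse whole-genome arrays. The authors deposited log2 levels made with RMA, with quantile normalization within each hybridization batch and then over all arrays, and ComBat for batch. Batch numbers were not used here. Because these steps use information from all arrays, differences between batches may be reduced and the spread understated. The labels name no hybridization batch. In 6 sets of arrays, 47 in all, exactly equal values (at least 5, within 1e-08) were taken to mark arrays normalized together. Each set held at most 1 mouse of a group.

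From the 45037 probesets, 1 group-mean model of all 48 arrays was fitted with LIMMA (limma 3.58.1, R 4.3.3), with Benjamini-Hochberg adjustment over all probesets and a threshold of 0.01. SE is that of the fit. Contrasts were 7 d minus 0 h in CIE mice, the same in Ctrl mice, their difference, and 7 d minus 72 h in CIE mice. Each gene was read by its probeset of highest mean, giving 18193 genes from 34945 probesets with 1 symbol; 932 had several and 9160 none. The code was tested on simulated data. The number of arrays limits the precision. Nothing in the labels pairs mice.

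Named genes were the 12 highest and 12 lowest called changes, up to 4 called members of each of 42 lists, and 24 fixed genes. The members and lists were chosen with earlier results of these data known. Genes outside the rule (Ccl8, Ccl9, Gpr34, Arrdc2, Mt2, Wif1, 2810013P06Rik, Sbsn, Cdkn1a, and uncalled list members) were chosen after their values were seen. Other promoter motifs searched were GGGACTTTC, TTATGTAA, TGACGTCA, TGACGTGG and TTCNNGAA, held by 0.403%, 1.11%, 2.03%, 0.714% and 9.6% of genes. Alternatives were the fit of the compared arrays alone, sets as a block, a filter at 5 on the log2 scale, repeated quantile normalization, centering, eBayes with trend, and leaving out each mouse.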

Additional observations from a re-analysis of the deposited data

Results flagged for a closer look

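For 8 named genes the change between 7 d and 0 h differed between CIE and Ctrl mice in the test of the difference itself. The CIE change minus the Ctrl change was 1.22 for Fcrls, 0.76 for Olfml3, 0.70 for Vegfa and 0.57 for Arntl, and -1.38 for Plin4, -0.75 for Ciart, -0.53 for Srxn1 and -0.46 for Dbp. Dbp was called in neither direction in CIE mice alone.

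Single mice lay far from the other 5 of their group in 6 of 158 groups of named genes searched, a rule that flags about 1 group in 20 by chance. CIE mouse 59 at 7 d was low in Iigp1 (6.75, with the others at 7.47 to 7.89) and in Rsad2 (7.20, with the others at 7.76 to 8.03). CIE mouse 27 at 7 d was low in Plin4 (5.74, others 6.14 to 6.25) and CIE mouse 7 at 7 d in Sgk1 (11.01, others 11.23 to 11.34). At 0 h, CIE mouse 57 was low in Fabp7 (8.99, others 9.37 to 9.51) and CIE mouse 43 was high in Pdgfra (10.43, others 9.97 to 10.08).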

How the results depend on the processing

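No paired analysis was possible because the labels give each mouse a number of its own, and the hybridization sets inferred from the arrays were used as a block instead. A fit of the compared arrays alone called 199 probesets and 120 genes in CIE mice, 37 and 24 in Ctrl mice, and 8 and 2 for the difference. With these sets as a block, a fit that also drops Ctrl mouse 2 at 0 h because it fell in no set, Ctrl mice had 44 probesets and 24 genes (38 genes without that mouse and no block), and CIE mice had 262 and 160, all 160 shared with the calls without the block. Leaving out 1 mouse gave 255 to 370 probesets and 152 to 214 genes in CIE mice, 54 to 112 and 31 to 67 in Ctrl mice, and 16 to 37 and 7 to 17 for the difference. Of 65 called named genes, 44 kept their call in all of the up to 19 alternatives, 21 lost it in 1 or more (19 of them in the fit of 12 arrays, which has fewer samples), and none reversed. B2m was called in 4. None of the 18 list medians reversed or moved by as much as the SD of the list mean between mice of a group. The fit of 12 arrays and that with eBayes trend keep the same group means, so the medians could not move there.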

Other observations

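Marker lists of neighbouring tissues had no called member in CIE mice but differed in their medians. The 17 meningeal and fibroblast markers had a median change of 0.26 in CIE and -0.37 in Ctrl mice, and the 12 striatal markers of 0.04 in CIE and 0.81 in Ctrl mice. Whether these medians differ was not tested. Of 18 endothelial and pericyte markers, 17 had changes above 0 in CIE mice, at a median of 0.17, and none was called.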
